A study of Mus musculus with 4 samples.

Results

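The genes described here move sugar into and out of the intestinal epithelial cell or act in fructose breakdown and gluconeogenesis. They are 4 hexose transporters (Slc5a1, Slc2a1, Slc2a2 and Slc2a5), 4 enzymes (Khk, Fbp1, G6pc and Pck1) and 1 transcriptional regulator (Mlxipl), 9 of the 18193 genes that a probe set names alone on the array. The members were chosen by gene name: each probe set whose platform annotation names a member was taken, 14 of 45101 in all, and none of these names a further gene. Where a gene had several, the one of highest mean signal represents it.

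Signals came from laser-captured Paneth cells, which secrete antimicrobial proteins from the crypt bottom of the small intestine, of male NMRI mice aged 8 weeks. Mice of one group stayed germ-free until they were killed. Mice of the other group had been germ-free and were then conventionalized for 10 days, meaning that intestinal microbes taken from a normally colonized mouse were given to them. Each group's RNA was a single pool of 3 mice. From it 2 portions of 10 ng went through separate amplification and hybridization, so the 2 arrays of a group are technical repeats. Every error and p-value here therefore measures amplification and array error between 2 pools, not the spread between mice.

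In the absorptive epithelium, Slc5a1 (SGLT1) takes up glucose and galactose with sodium at the brush border, and Slc2a5 (GLUT5) takes up fructose there. Slc2a2 (GLUT2) passes hexoses across the basolateral membrane, while Slc2a1 (GLUT1) is the widespread basal glucose carrier. Khk phosphorylates fructose in the first step of its breakdown. Pck1, Fbp1 and G6pc catalyse steps particular to gluconeogenesis, from oxaloacetate to phosphoenolpyruvate, from fructose bisphosphate to fructose 6-phosphate, and from glucose 6-phosphate to free glucose. Mlxipl (ChREBP) is a glucose-responsive transcription factor that acts on genes of fructose and lipid metabolism. This programme is best known from absorptive enterocytes.

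The deposited signals had been scaled by the authors to an equal trimmed mean on each array, but the median over all probe sets was 133 and 86.5 on germ-free replicates 1 and 2 and 102 and 136 on conventionalized replicates 1 and 2. Markers of Paneth cells were bright on each array, with a summed signal over 10 markers of 66975 to 149105 in the germ-free and 308735 to 685546 in the conventionalized arrays. A few markers weigh most in this sum. Lyz1 and Defa31, named after their values were seen, read 249594 and 245509 of the 685546 on conventionalized replicate 2. Markers of absorptive enterocytes were bright too. Their sum over 26 markers was 139057 and 246687 in the germ-free arrays against 140243 and 309312, so the capture held transcripts of both programmes. In these pooled, bulk samples, fewer cells of a type and less RNA per cell cannot be told apart. The fluidics station was 1 for the germ-free and 2 for the conventionalized arrays, so the station cannot be told apart from the group.

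Setting conventionalized against germ-free cells asks whether sugar transporters and sugar-metabolizing enzymes differed after colonization. None of the 9 genes passed the test. Of them 8 lay lower in the conventionalized pool, with Slc2a1 the exception, where 49.98% of all genes tested lay lower. Median centring shifted all probe sets down, to a median of -0.10, and this shift alone put Slc2a1 below 0. The median log2 difference of the 9 genes was -0.47 beside 0.00 over the 22491 probe sets tested. No member differed by 2-fold or more. The largest differences among the 9 were those of Slc2a2 (1.61-fold lower), Mlxipl (1.54-fold lower), Fbp1 (1.50-fold lower) and Slc5a1 (1.48-fold lower).

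The test was limma on log2(intensity + 32), a scale that understates the change of dim probe sets. It was run on probe sets whose mean signal exceeded the median of all (113.9), with a call meaning an adjusted p (Benjamini-Hochberg, over all of them) under 0.05. Of the 14 member probe sets 11 were tested, including the brightest of each gene, and 0 were called, where 0.333% of all probe sets tested were (27 higher and 48 lower, or 3 and 18 with median centring). The limma adjusted p was 0.999 at each of the 11, and 0 had an unadjusted p under 0.05. Over the alternative settings 3 such unadjusted values came up, and none passed the adjustment. They were those of Slc5a1 with quantile normalization (limma adjusted p = 0.734) and without germ-free replicate 1 (limma adjusted p = 0.999), and of Mlxipl without conventionalized replicate 1 (limma adjusted p = 0.324). The 95% interval of the difference held 0 for each of the 9 genes. Its lower end ran from -0.83 for Slc2a1 to -1.58 for Slc2a2, so a reduction of about 2-fold lay within the interval of 8 genes and was not detectable with these arrays.

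**Figure D1:**
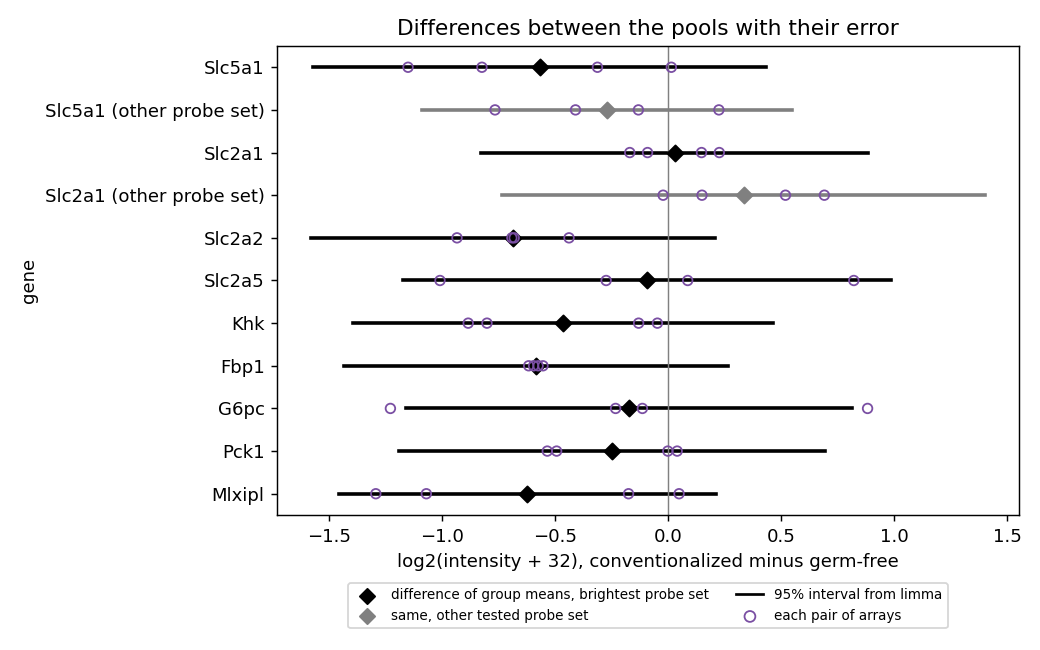
Differences on the log2(intensity + 32) scale, conventionalized minus germ-free, for the 11 tested probe sets; diamonds are differences of group means, lines the 95% intervals from limma, and circles the 4 single pairs of arrays. Each interval crosses 0, the Fbp1 pairs lie close together, and the G6pc pairs reach from -1.23 to 0.88.

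In 3 of the 9 genes, Slc2a2, Khk and Fbp1, both conventionalized arrays lay below both germ-free arrays. Over the brightest probe sets of all 12113 genes tested, 16.1% were lower without overlap. No member was higher without overlap, against 15.9% of all genes. With 2 arrays against 2, a two-sided exact permutation test cannot go below p = 0.333.

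Among the transporters, Slc2a2 had the largest difference. Its germ-free signals were 623 and 748, against 376 and 451 after conventionalization. Both conventionalized values were below both germ-free values, and duplicates lay 1.20-fold apart in either group. The difference on the log2 scale was -0.69 ± 0.46 (SE, 2 arrays per group), with a 95% interval of -1.58 to 0.21.

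Slc5a1 was read by 2 probe sets. At the brighter one, the germ-free signals were 5963 and 10685, against 4796 and 6023 after conventionalization. The groups overlapped, because germ-free replicate 1 lay just under conventionalized replicate 2, and germ-free replicate 2 alone stood clearly higher. The log2 difference of -0.57 ± 0.51 (SE, 2 arrays per group) came to -0.15 without germ-free replicate 2 and to -0.99 without germ-free replicate 1. The other probe set read 1043 and 1636 against 949 and 1224, with the 4 arrays in the same order and a difference of -0.27 ± 0.42 (SE, 2 arrays per group).

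Slc2a5, the fructose carrier, was split within groups and not between them. Germ-free replicate 1 and conventionalized replicate 2 read 365 and 390, whereas germ-free replicate 2 and conventionalized replicate 1 read 207 and 165. Duplicates were 1.77-fold apart in germ-free and 2.36-fold apart in conventionalized cells, and the difference between groups was -0.09 ± 0.55 (SE, 2 arrays per group).

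Slc2a1 was level across the arrays at its brightest probe set, with 659 and 698 in germ-free cells against 777 and 617. The conventionalized values lay on either side of the germ-free ones, which gave a difference of 0.03 ± 0.44 (SE, 2 arrays per group) and a 95% interval of -0.83 to 0.89; with median centring the value was -0.076. A second tested probe set read 258 and 226 against 254 and 384, a difference of 0.33 ± 0.54. The third lay under the signal filter, at 63.4 and 134 against 30.9 and 81.0, and was not tested.

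**Figure D2:**
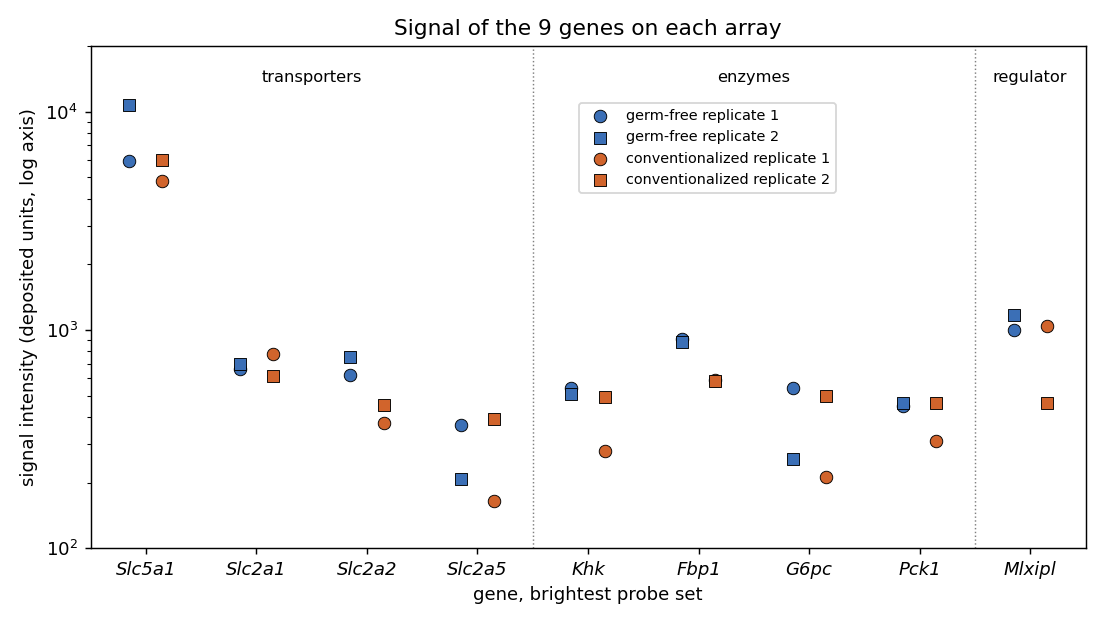
Deposited signal intensity (log axis) of each gene's brightest probe set on the 4 arrays, germ-free in blue and conventionalized in orange; levels of different genes come from different probes and are not comparable. Slc2a2, Khk and Fbp1 show both orange points below both blue points, and Slc2a5 and G6pc show the wide split within each group.

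All 4 enzymes had a log2 difference below 0, with a median of -0.36, and 2 of them did not overlap between groups. The 4 transporters had a median of -0.33, with 3 below 0 and 1 not overlapping. Over all genes tested, 16.1% were lower without overlap. No test was made of transporters against enzymes, since members are not replicates of a condition.

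Fbp1, fructose-1,6-bisphosphatase of gluconeogenesis, had the closest duplicates. It read 911 and 885 in germ-free cells against 593 and 583, that is 1.03-fold and 1.02-fold apart. Both conventionalized arrays were lower than both germ-free arrays, and the 4 single pairs gave log2 differences between -0.62 and -0.55. The difference of -0.59 ± 0.43 (SE, 2 arrays per group) nevertheless did not pass, because the fit gave each probe set the error of probe sets of like signal. Its own residual standard deviation was 0.02 on the log2 scale. Without the variance trend, the limma adjusted p of every member was 0.9995, and 0 of their probe sets had an unadjusted p under 0.05. That fit still drew on the error of all probe sets. It therefore cannot show what the close duplicates of Fbp1 would give on their own error.

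Khk, ketohexokinase, read 543 and 511 in germ-free cells against 280 and 494. Both conventionalized values were lower, conventionalized replicate 2 only barely so. The log2 difference of -0.47 ± 0.47 (SE, 2 arrays per group) was -0.09 without conventionalized replicate 1 and was -0.84 without conventionalized replicate 2.

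Pck1, cytosolic phosphoenolpyruvate carboxykinase, read 450 and 464 in germ-free cells against 310 and 463. Its values lay in a narrow band on the other arrays, and conventionalized replicate 1 alone was lower. The difference was -0.25 ± 0.48 (SE, 2 arrays per group), and 0.020 without conventionalized replicate 1. Its other 2 probe sets lay under the filter, with 130 and 51.2 against 57.3 and 98.5, and with 58.0 and 25.8 against 72.9 and 19.9. Their duplicates differed by 1.72-fold to 3.66-fold.

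G6pc, the catalytic subunit of glucose-6-phosphatase, followed the same split as Slc2a5. Germ-free replicate 1 and conventionalized replicate 2 read 542 and 499, and germ-free replicate 2 and conventionalized replicate 1 read 256 and 213. Duplicates were 2.12-fold and 2.34-fold apart, more than the difference between groups of -0.17 ± 0.50 (SE, 2 arrays per group). The pair of arrays on which Slc2a5 and G6pc were high is also the pair with the higher median over all probe sets, and the part of this in either gene was not tested.

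Mlxipl, the regulator, read 1002 and 1175 in germ-free cells against 1037 and 461. Conventionalized replicate 1 lay between the germ-free values, and conventionalized replicate 2 alone was low. The log2 difference of -0.62 ± 0.43 (SE, 2 arrays per group) came to -0.06 when conventionalized replicate 2 was left out and to -1.18 when replicate 1 of that group was. The value of Mlxipl therefore stood on 1 array.

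Mlxipl binds, with its partner Mlx, to elements built from E-box sequences. CACGTG is a palindromic E-box (it reads the same on both strands), and single copies of it were searched for, not whole elements. RefSeq promoter entries (GRCm38.p6) were matched for all 9 genes, 10 windows of 250 bases before a transcript start. CACGTG occurred in 3 of the 10, against 6.02% of 32851 such windows of all genes. They belong to Slc5a1, Khk and Mlxipl itself. The windows of Slc5a1 and Mlxipl are printed around the match, which is in capitals, so that the site and its flanks can be read; both are on the plus strand. The Khk window (chr5:30921461-30921520) starts after the first base of the annotated gene, 30921436, and may hold transcribed sequence, so it is not shown.
Slc5a1, chr5:33104049-33104108: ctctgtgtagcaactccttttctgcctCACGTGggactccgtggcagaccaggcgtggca
Mlxipl, chr5:135089765-135089824: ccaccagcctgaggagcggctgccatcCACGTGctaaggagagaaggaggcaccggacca
The motif starts 143 bases before the transcript start of Slc5a1 and 98 bases before one of 2 starts of Mlxipl. A match describes letters only, since the arrays measured no binding. Whether Mlxipl acts on either gene in these cells was not tested.

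Leaving out 1 array at a time showed which of the 9 differences were steady. Fbp1 stayed between -0.61 and -0.56 and Slc2a2 between -0.81 and -0.56. By contrast, Slc2a5 reached 0.45 and G6pc 0.38 without conventionalized replicate 1, and 0.27 and 0.33 without germ-free replicate 1. Without conventionalized replicate 1, 6 of the 9 genes were below 0 and their median was -0.13, so the lower values of the group as a whole leaned on that array. No member probe set was called with any array left out, the lowest limma adjusted p being 0.32, for Mlxipl without conventionalized replicate 1.

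**Figure D3:**
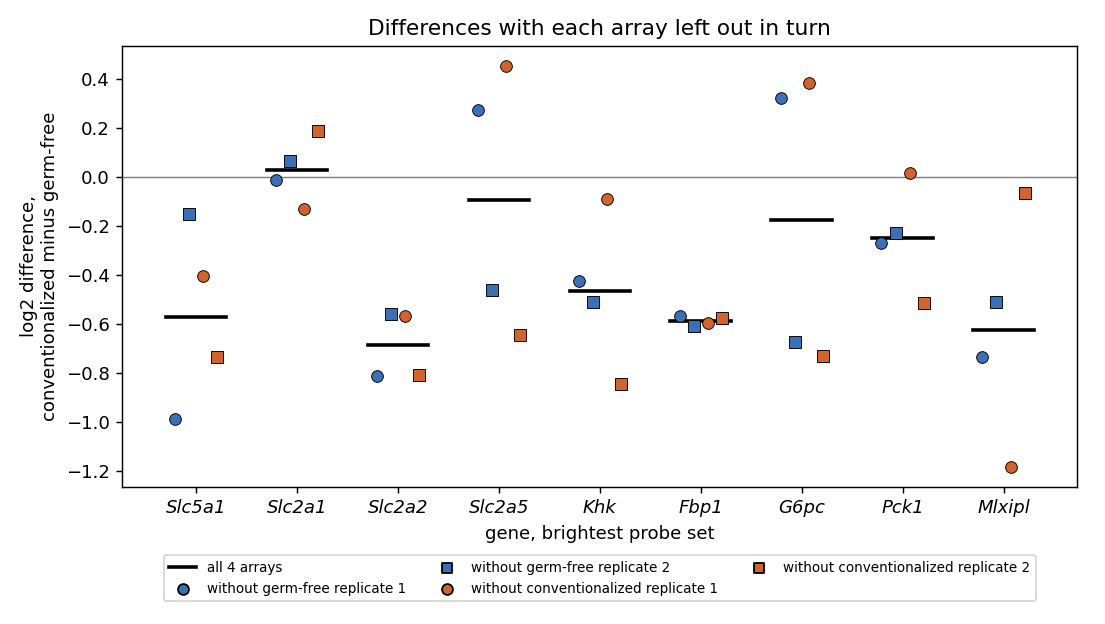
Log2 difference, conventionalized minus germ-free, of each gene's brightest probe set with all 4 arrays (black bar) and with 1 array left out (blue, a germ-free array; orange, a conventionalized array). Slc2a2 and Fbp1 keep values between -0.81 and -0.56, while Slc2a5, G6pc, Pck1 and Slc2a1 cross 0.

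Other genes of sugar handling were read in the same fit. Of 11 tested other genes of the transporter families Slc2a and Slc5a, 0 were called and the median log2 difference was 0.14. Not all of these carry hexoses. Slc5a9, a sodium-dependent mannose and glucose carrier, read 5278 and 790 in germ-free cells against 8682 and 1589. Its replicate 1 arrays were far above its replicate 2 arrays in both groups, and the difference of 0.85 ± 0.43 (SE, 2 arrays per group) was not called. Without germ-free replicate 1 the difference was 2.19 and was called, but the germ-free arm was then 1 array, assumed to vary like the others, and the wide gap between its duplicates was left out. Slc5a3, a sodium-dependent inositol carrier, differed by 0.14, and Slc5a4b, a relative of Slc5a1, by -0.61. Slc2a8, a hexose carrier of internal membranes named after its values were seen, read 409 and 374 against 421 and 28.7, so 1 array alone was low, as for Mlxipl. Without conventionalized replicate 1, that low array was the whole conventionalized arm, with its spread taken from the other arrays, and the difference of -2.80 was called.

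Fructose, sorbitol and galactose metabolism had 5 tested genes, 0 called and a median of -0.14. Tkfc, the triokinase that follows Khk in fructose breakdown, read 710 and 554 against 660 and 717, a difference of 0.13. Galm, the mutarotase that readies galactose for phosphorylation, read 958 and 1625 against 791 and 860, without overlap, a difference of -0.58 ± 0.42. Galt, the uridylyltransferase of galactose breakdown, differed by 0.14.

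Of 11 tested further genes of gluconeogenesis and pyruvate entry, 1 was called, and the median was 0.29. Slc25a10, the mitochondrial dicarboxylate carrier, fell from 650 and 535 to 246 and 40.6, which is -2.13 ± 0.55 on the log2 scale (SE; limma adjusted p = 0.038). Both conventionalized arrays were lower, by unequal amounts. The call was kept in 2 of 12 alternative settings, with limma adjusted p from 5.1e-04 to 1.00. The lowest came without conventionalized replicate 1, at -3.10, where 1 array made up the conventionalized arm. Leaving out the filter, leaving out the variance trend or taking the brightest 25% alone cannot alter the difference of -2.13. The call was lost in each of them. The difference was -2.09 with quantile normalization and -2.23 with median centring, and the call was lost there too. It was -1.16 without conventionalized replicate 2.

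Glycolysis had 19 tested genes, 0 called and a median of 0.08. The list of regulators and targets of the carbohydrate response had 18 tested genes, 0 called and a median of 0.07. That list also holds broader factors such as Hnf4a and Cdx2, so its median does not describe the carbohydrate response alone. Pgk1, phosphoglycerate kinase, read 18256 and 37874 against 45803 and 62253, without overlap, for a difference of 1.02 ± 0.91. Ldha differed by 0.08 and Tpi1 by -0.17. Hnf4a, a transcription factor of the intestinal epithelium, differed by 0.08, Acly, which makes cytosolic acetyl-CoA, by -0.08, and Cdx2, an intestinal identity factor, by -0.43. Txnip, a well-known glucose-responsive gene named after its values were seen, read 1029 and 1219 against 1762 and 809, a difference of 0.09. The conventionalized values lay on either side of the germ-free ones.

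Absorptive enterocyte markers, none of them a member, lay beside the 9 genes in direction. Of 25 tested, 20 were below 0, with a median of -0.54, and Apoc3, an apolipoprotein, was the 1 called, lower. Their summed signal overlapped between groups, as given above, but a few bright markers weigh most in that sum. Fabp2, named after its values were seen, was among those above 0. It made up 142558 of the 309312 on conventionalized replicate 2. The sum therefore does not describe the typical marker. The lowest of the list was Slc10a2, an ileal bile acid carrier, at 1.70 to 33.9. Of the 9 tested Paneth markers, 9 were above 0, with a median of 1.96, and Reg3g and Mptx1, both secreted proteins that bind microbes, were the 2 called, higher. Goblet cell markers had a median of 0.53 over 8 tested, 2 of them below 0. Enteroendocrine markers had a median of -0.33 over 10 tested, 8 of them below 0. In either list 0 were called. Alb, which defines hepatocytes, where several of the 9 genes are also strong, read 18.4 to 193 and lay under the filter. Ttr of the same list, named after its values were seen, passed the filter. It read 250 and 282 in germ-free cells against 177 and 313. Fibroblast and smooth muscle markers had a median of -0.32 (7 tested, 0 called), hepatocyte and pancreatic markers of -0.15 (3 tested, 0 called), and blood, endothelial and leukocyte markers of 0.30 (4 tested, with Igha called higher). The part of enterocyte RNA in the values of the 9 genes was not tested.

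**Figure D4:**
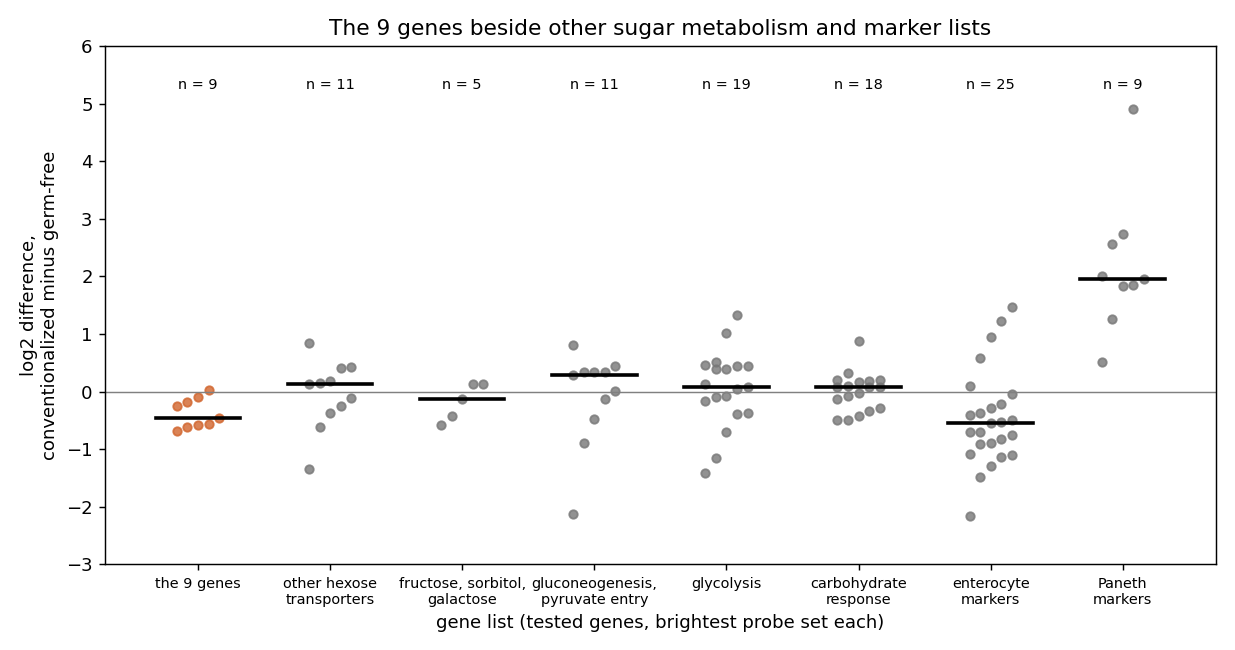
Log2 difference, conventionalized minus germ-free, of each tested gene (1 point, brightest probe set) in the 9 genes, 5 lists of sugar metabolism and 2 marker lists; black bars are medians. The 9 genes have a median of -0.47, near the enterocyte markers (-0.54) and below the Paneth markers (1.96). The marker lists not drawn had medians from -0.33 (enteroendocrine) to 0.53 (goblet cell).

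For the 3 members with the highest mean signal, the genes of most similar pattern were sought among the 12113 genes tested, by the root mean square difference of log2 values centred on each gene's own mean over the 4 arrays. With 4 arrays such likeness is only a description. Nearest to Slc5a1 were Pgrmc2, Prkar1a and Ufl1, at 0.02 to 0.04. Nearest to Fbp1 were Acp5, Tmem64 and 1700008J07Rik, at 0.02 to 0.03; Acp5 read 598 and 583 against 387 and 368. Nearest to Mlxipl were 1600014C10Rik, Stxbp6 and Lgalsl, at 0.04 to 0.05, each low on conventionalized replicate 2 alone.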

How the data were processed

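Signal came from 4 Affymetrix Mouse430_2 arrays, the array type being that named in the scanner files. The authors deposited 1 linear intensity per probe set and array, and with 2% trimmed from either end each array averaged 250. The software is not given in the sources used here, and values were left as scaled. The scanner files named 1 chip lot, 1 scanner and 1 scan day. The 64 control probe sets were left out of the test, and 22491 probe sets were fitted in R 4.3.3 by lmFit and eBayes of limma 3.58.1, with the variance following a trend on signal. The prior degrees of freedom were infinite beside 2 residual ones. Intensities were used as log2(intensity + 32).

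The fit was tested on simulated data: a log2 change of 1 was recovered for 0 of 50 probe sets and one of 2 for 19 of 50. The number of arrays limits the precision. Symbols came from the platform annotation of 2016, checked by gene identifier against RefSeq (GRCm38.p6). Pathway and marker genes with no probe set naming them alone were not used here.

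Members, lists and tests were chosen with earlier results of these data known. Named genes are the 9 members at each probe set, and per list each called gene or otherwise the 3 brightest. Single markers are named where they define a list or are near 0 (Alb, Slc10a2); the called markers Apoc3, Reg3g, Mptx1 and Igha were named after their values were seen, as were others so described. Where an array left out leaves 1 in a group, the fit assumes that it varies like the rest.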

Additional observations from a re-analysis of the deposited data

How the results depend on the processing

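No member probe set was called in any of 12 alternatives, with a lowest limma adjusted p of 0.32. The count of 75 probe sets called became 21 with median centring, 34 with quantile normalization and 0 without the variance trend (975 with an unadjusted p under 0.05), and ran from 41 to 213 with 1 array left out. The 1 pathway gene called, Slc25a10, became 0 with the higher pseudocount, without the filter, in the brightest 25% of probe sets, with either other scaling and without the variance trend, and the pathway count ran from 0 to 2 with 1 array left out. The cause of these shifts was not tested.

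With the aliquot number as a replicate block, 30 probe sets were called, 0 of them members and 0 pathway genes. Same-numbered arrays come from separate pools and share only a number, and the correlation of their deviations over probe sets was -0.13.

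Slc2a1 changed sign with median centring (-0.076). With 1 array left out, Slc2a1 ran from -0.13 to 0.19, Slc2a5 from -0.64 to 0.45, G6pc from -0.73 to 0.38 and Pck1 from -0.51 to 0.020. The other 5 genes stayed below 0 in all 12 alternatives. The changes of filter, the fit without the variance trend and the replicate block cannot alter a difference, so only the remaining settings bear on its sign. Median centring moved the median of all probe sets tested to -0.10.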
